A study of Mus musculus with 4 samples.

Results

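The unfolded protein response genes described here are 10 genes for sensors, a transcription factor, chaperones and a degradation factor of the endoplasmic reticulum (ER). They were chosen by name (Xbp1, Ern1, Atf6, Eif2ak3, Hspa5, Hsp90b1, Pdia4, Dnajb9, Herpud1 and Sdf2l1), and all 10 were found by NCBI gene number among the 27179 genes of the deposited values. RNA had been sequenced from leukemia-initiating cells (LICs) of a mouse model of acute myeloid leukemia, in 4 libraries, 2 under the label WT and 2 under CD274-null. The labels give bone marrow LSC sorted by FACS, and the study defines LICs as Mac-1+/c-Kit+ cells, but its sequencing methods speak of RNA from tissue and name no gate, so that the gate behind these libraries is not certain. In both groups the leukemia had been started with a retrovirus carrying the fusion oncogene MLL-AF9 and YFP, which was put into lineage-negative fetal liver cells before their transfer to irradiated mice. The cells were of C57BL/6 strain, either wild type or CD274-/-, and the labels give an age of 6 weeks for all 4 libraries. Whether the 2 libraries of a group came from separate mice is not stated, so that p-values measure only the spread between these libraries, which may be technical.

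Proteins destined for the cell surface or for secretion fold in the ER with the help of chaperones. When unfolded proteins accumulate, the sensors of the ER membrane respond. IRE1α (from Ern1) splices the Xbp1 mRNA, PERK (from Eif2ak3) slows translation by phosphorylating eIF2α, and ATF6 (from Atf6) is cleaved to release a transcription factor. XBP1 and ATF6 turn on chaperone and degradation genes, and the PERK branch acts through ATF4 and CHOP (from Ddit3). Antibody-secreting cells are known for high levels of these genes, and myeloid precursors also pass large amounts of granule protein through the ER. A level per gene does not tell spliced from unspliced Xbp1, nor does RNA show the phosphorylation of PERK or the cleavage of ATF6.

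XBP1 and ATF6 are known to act through short promoter motifs, and the stretches that hold them are shown because they are a feature that several of these genes share beyond their names, and share with other pathway genes. RefSeq promoter windows (GRCm38.p6), each from 250 bases before to 50 bases after a gene start, were matched for 9 of the 10 genes. The ER stress response element (ERSE) is CCAAT, 9 bases of any kind and CCACG. On either strand it was found in 2 of the 9 windows, Hspa5 and Hsp90b1, and in 0.119% of all 32851 windows. The related ERSE-II is ATTGG, 1 base of any kind and CCACG, and it was found in the window of Herpud1 and in 0.0365% of all windows. Each line gives the strand of the gene from 5′ to 3′ with the motif in capitals, for Hspa5 at chr2:34771995-34772073 (plus strand), for Hsp90b1 at chr10:86705608-86705686 and chr10:86705503-86705581 (minus strand), and for Herpud1 at chr8:94386347-94386417 (plus strand).
Hspa5, ERSE: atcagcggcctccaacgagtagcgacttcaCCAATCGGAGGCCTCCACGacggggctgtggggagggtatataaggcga
Hsp90b1, distal ERSE: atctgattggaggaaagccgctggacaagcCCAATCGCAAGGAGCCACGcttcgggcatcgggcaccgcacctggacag
Hsp90b1, proximal ERSE: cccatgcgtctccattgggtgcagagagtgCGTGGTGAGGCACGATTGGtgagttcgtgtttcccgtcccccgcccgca
Herpud1, ERSE-II: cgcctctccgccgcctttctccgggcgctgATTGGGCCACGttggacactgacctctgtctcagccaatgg

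The motif of Hspa5 ends 47 bases before the gene start and that of Herpud1 ends 42 bases before it. In Hsp90b1 the distal motif ends 194 bases before the start, and the proximal one, which reads on the opposite strand, ends 89 bases before it. The motif TGACGTGG (UPRE, both strands) was in 0 of the 9 windows and in 0.676% of all windows. Among 76 other pathway genes with a window, ERSE was in 8 (Syvn1 and Dnajc3 among them), ERSE-II in 1, UPRE in 6 and CARE in 5, so that the motifs are not particular to the 10 genes. TGATGNAA (CARE, known from targets of ATF4 and C/EBP factors, both strands) was in 1 of the 9, Herpud1, and in 3.97% of all windows. It lies 112 to 105 bases before the start of Herpud1 and does not overlap the ERSE-II there. In the windows of Xbp1, Ern1, Eif2ak3, Pdia4, Dnajb9 and Sdf2l1, none of these 4 motifs matched, which says only that these letters are not in those windows. A match describes the sequence and is not a measured binding site.

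The deposited values were FPKM, fragments scaled by gene length and by mapped reads, so that levels can be set side by side between genes. Reads recovered from the steps of the FPKM values summed to 8285063 to 10968851 per library, as a lower bound. Cd274, the deleted gene, stood at 2.80 and 0.945 FPKM under the WT label and at 1.43 and 2.29 under the CD274-null label, and did not separate the labels (difference 0.09 ± 0.51 on the log2 scale, SE, limma adjusted p = 0.955). The part of the gene that the null allele lacks, and whether reads from it would still be counted, is not given in the sources used here. The genotype could thus not be checked with these values, and every direction given here rests on the labels. The 8 listed genes of MLL-AF9 leukemia and its LICs were all above 0 in all 4 libraries. Kit (encoding c-Kit) stood at 6.59 to 19.5 and Itgam (encoding part of Mac-1) at 100.2 to 174. As 16344 to 17038 genes were above 0 in a library, this does not test the labelled cell type. Of these 8, those with an unadjusted p under 0.01 and more than 1.5-fold between the labels were the granule gene Mpo, at 444 and 403 in WT, then 1427 and 925 (log2 difference 1.44, limma adjusted p = 0.251), and the surface receptor gene Cd33, at 199.9 and 234 in WT, then 69.7 and 67.9 (log2 difference -1.64, limma adjusted p = 0.110). In bulk libraries, fewer cells of a type and less RNA per cell cannot be told apart.

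By mean FPKM over the 4 libraries, Hspa5 and Hsp90b1 stood highest and the 3 sensors lowest. Hspa5 was above Hsp90b1, and Hsp90b1 above each other member, in every library, with the lowest Hspa5 value at 647 and the highest Hsp90b1 value at 358. Hspa5 lay at the 99.4th percentile of tested genes or above in each library, and Hsp90b1 at the 98.8th. Xbp1, Sdf2l1 and Herpud1 followed with means over the libraries of 121, 92.4 and 88.7, and their ranges overlapped, so that no order among them exceeded the spread. The means of Pdia4 and Dnajb9 were 49.0 and 45.3, also with overlapping ranges. The sensors Atf6, Eif2ak3 and Ern1 had means of 16.7, 13.0 and 11.3, each range overlapping the next. In WT replicate 2, Dnajb9 (16.4) was about level with Atf6 (16.5). Ern1 lay near the middle of all tested genes, at percentiles from 46.0 to 53.2.

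**Figure D1:**
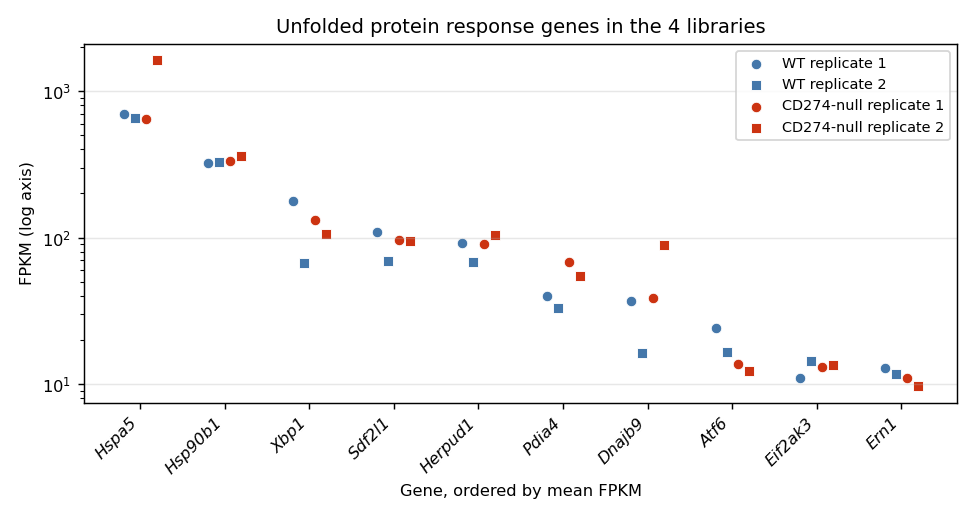
FPKM on a log axis of the 10 unfolded protein response genes, ordered by their mean, with 1 point for each of the 4 libraries (blue, WT; red, CD274-null; circles, replicate 1; squares, replicate 2). Hspa5 stood at 1621 in CD274-null replicate 2 and between 647 and 698 in the other libraries, and the sensors lay between 9.67 and 24.3.

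The libraries labelled CD274-null were then compared with those labelled WT. None of the 10 genes passed the thresholds of a candidate (unadjusted p under 0.01 and more than 1.5-fold), which 3.63% of the 13230 tested genes did. None had an adjusted p under 0.05 from limma, beside 0.0756% of all tested genes. At an unadjusted p under 0.05, limma called Pdia4 and Dnajb9, 2 of the 10 genes, beside 13.7% of all tested genes. Dnajb9 lay just under this threshold and kept this call under only 5 of the 16 alternatives, and Pdia4 under 13, losing it without WT replicate 2, without CD274-null replicate 1 and without moderation. Both were higher in the CD274-null-labelled libraries, as were 8.04% of all tested genes at this p. With voom on the recovered reads, and under each of the other alternatives (16 in all), the number of candidates among the 10 was again 0. All 10 genes passed the filter on low values, each with FPKM far above it in both groups. Their median difference on the log2 scale was 0.13, beside 0.01 for all tested genes, and it was 0.49 without WT replicate 1. The groups did not overlap for 5 of the 10 genes. Hsp90b1, Pdia4 and Dnajb9 had both CD274-null values above both WT values, as 25.6% of all tested genes had, and Atf6 and Ern1 had them below, as 21.8% had.

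In the following, differences are CD274-null minus WT on log2(FPKM + 0.5), each with its SE or 95% interval from limma, and positions are those of GRCm38.p6. Ern1, which encodes the kinase and endoribonuclease IRE1α, lies at chr11:106397620-106487796. Its FPKM was 12.9 and 11.8 in the WT-labelled libraries and 11.0 and 9.67 in the CD274-null-labelled ones, from 383 to 592 recovered reads. Both CD274-null values were thus below both WT values, by a small margin. The difference of -0.24 had a 95% interval from -0.84 to 0.35 (limma adjusted p = 0.681) and did not exceed the spread.

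Atf6 (chr1:170704457-170868585) encodes the sensor that becomes a transcription factor. It stood at 24.3 and 16.5 in WT, against 13.6 and 12.3 in CD274-null libraries. WT replicate 1 was the highest, 1.47 times the next library, and the groups did not overlap. limma put the difference at -0.61, with a 95% interval from -1.27 to 0.05 (unadjusted p = 0.0638, adjusted p = 0.387). Without WT replicate 1 it was -0.34, and without WT replicate 2 it was -0.88.

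Eif2ak3 (chr6:70844484-70905241), which encodes PERK, stood at 11.1 and 14.4 in WT, against 13.1 and 13.6 in CD274-null libraries. Both CD274-null values lay between the WT values. Its difference of 0.08 had a 95% interval from -0.53 to 0.69 (limma adjusted p = 0.914), and was -0.10 without WT replicate 1. Of the sensors, Eif2ak3 varied least, with its highest library 1.30 times its lowest.

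Xbp1 (chr11:5520641-5525993) encodes the transcription factor whose mRNA IRE1α splices. It stood at 177 and 66.8 in WT, against 133 and 106 in CD274-null libraries. The widest gap lay between the WT libraries, which enclosed both CD274-null libraries. The group means were 122 ± 77.9 (SD, n = 2) for WT and 119 ± 19.1 (SD, n = 2) for CD274-null. The limma difference was 0.12 ± 0.45 (SE, adjusted p = 0.926). It was -0.58 without WT replicate 2 and 0.82 without WT replicate 1, so that its sign rested on which WT library was used.

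**Figure D2:**
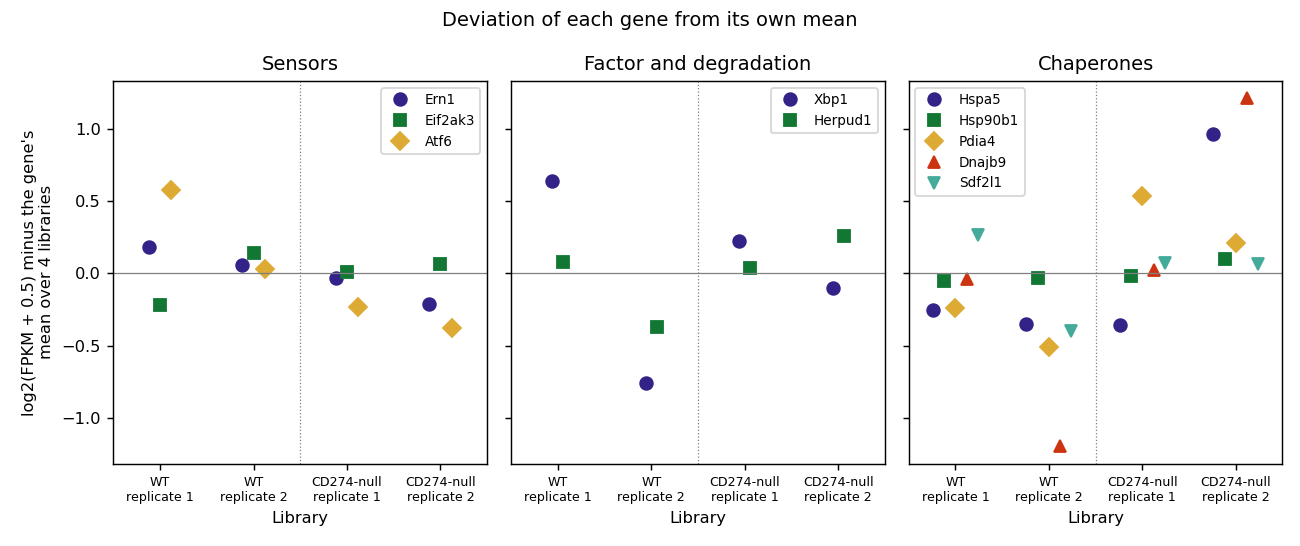
For each of the 10 genes, log2(FPKM + 0.5) in each of the 4 libraries minus the mean of that gene over the libraries, in panels by role. Xbp1 and Dnajb9 lay lowest in WT replicate 2 (-0.76 and -1.20), and Hspa5 and Dnajb9 lay highest in CD274-null replicate 2 (0.96 and 1.21).

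Among the chaperones, Hspa5 (chr2:34772090-34776529) encodes BiP, the HSP70 of the ER, which also binds the sensors at rest. Its FPKM was 698 and 650 in WT, against 647 and 1621 in CD274-null libraries, from 14976 to 42237 recovered reads. A single library stood apart. CD274-null replicate 2 was 2.32 times the next library, whereas CD274-null replicate 1 was the lowest of the 4 and close to both WT libraries. The difference of 0.60 ± 0.46 (SE, limma adjusted p = 0.579) rested on that library and was -0.06 without it.

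Hsp90b1 (chr10:86690841-86705444) encodes GRP94, the HSP90 of the ER. It stood at 324 and 328 in WT, against 331 and 358 in CD274-null libraries, the narrowest range of the 10 genes, with the highest library 1.11 times the lowest. Its groups did not overlap, but the difference was only 0.08 ± 0.22 (SE, limma adjusted p = 0.901). Over the alternatives this difference ran from 0.0092 with quantile normalization to 0.21 with GC correction. Hspa5 and Hsp90b1 both hold an ERSE in the windows shown above, and their levels did not keep a fixed ratio. The FPKM of Hspa5 over that of Hsp90b1 was 2.16 and 1.98 in WT, against 1.95 and 4.53 in CD274-null libraries. This ratio, taken within a library, does not depend on how the library was scaled.

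Pdia4 (chr6:47796141-47813512) encodes ERp72, a protein disulfide isomerase. It stood at 39.8 and 33.0 in WT, against 68.5 and 54.6 in CD274-null libraries. Both CD274-null libraries lay above both WT libraries, with group means of 36.4 ± 4.79 (SD, n = 2) and 61.6 ± 9.86 (SD, n = 2), a ratio of 1.69. limma gave a difference of 0.75 with a 95% interval from 0.20 to 1.30 (unadjusted p = 0.0159, adjusted p = 0.296), the lowest p of the 10 genes and rank 709 among all genes tested. Over the alternatives the adjusted p ran from 0.272 to 0.954, and the difference stayed between 0.59 and 0.91 whichever library was left out.

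Unlike Hspa5, Pdia4 was higher in CD274-null replicate 1 than in replicate 2. The FPKM of Hspa5 over that of Pdia4 was therefore lowest in CD274-null replicate 1 (9.44) and highest in replicate 2 (29.7), with the WT libraries between them at 17.6 and 19.7.

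Dnajb9 (chr12:44205897-44210068) encodes ERdj4, a co-chaperone of BiP that represses IRE1α. It stood at 37.1 and 16.4 in WT, against 38.8 and 89.0 in CD274-null libraries. WT replicate 1 and CD274-null replicate 1 were nearly equal, and the groups were set apart by a low WT replicate 2 and a high CD274-null replicate 2. The highest library was 5.43 times the lowest, the widest range of the 10 genes. Group means were 26.8 ± 14.7 (SD, n = 2) and 63.9 ± 35.5 (SD, n = 2), a ratio of 2.39. limma put the difference at 1.23 ± 0.51 (SE, unadjusted p = 0.0499, adjusted p = 0.364), and it ran from 0.64 without CD274-null replicate 2 to 1.83 without CD274-null replicate 1.

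Dnajb9 is known as a target of XBP1, yet their RNA levels did not share 1 order across the libraries. WT replicate 1 held the highest Xbp1 level but a middle Dnajb9 level. The FPKM of Dnajb9 over that of Xbp1 was 0.210 and 0.245 in WT, against 0.292 and 0.841 in CD274-null libraries. These levels do not show how much Xbp1 was spliced.

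Sdf2l1 (chr16:17130138-17132383) encodes a partner of ER DnaJ co-chaperones. It stood at 109.5 and 69.1 in WT, against 95.6 and 95.3 in CD274-null libraries. The CD274-null libraries were nearly equal and lay between the WT libraries. Its difference of 0.13 had a 95% interval from -0.52 to 0.79 (limma adjusted p = 0.859). Once GC content was corrected for, the differences of Xbp1 and Sdf2l1 turned to -0.0083 and -0.07.

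Herpud1 (chr8:94386429-94395371) encodes an ER membrane protein of the degradation machinery. It stood at 92.5 and 67.7 in WT, against 89.8 and 104.7 in CD274-null libraries. The groups overlapped, with WT replicate 2 lowest and CD274-null replicate 2 highest. The difference of 0.29 had a 95% interval from -0.29 to 0.87 (limma adjusted p = 0.613), and was 0.067 without WT replicate 2 and 0.52 without WT replicate 1.

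**Figure D3:**
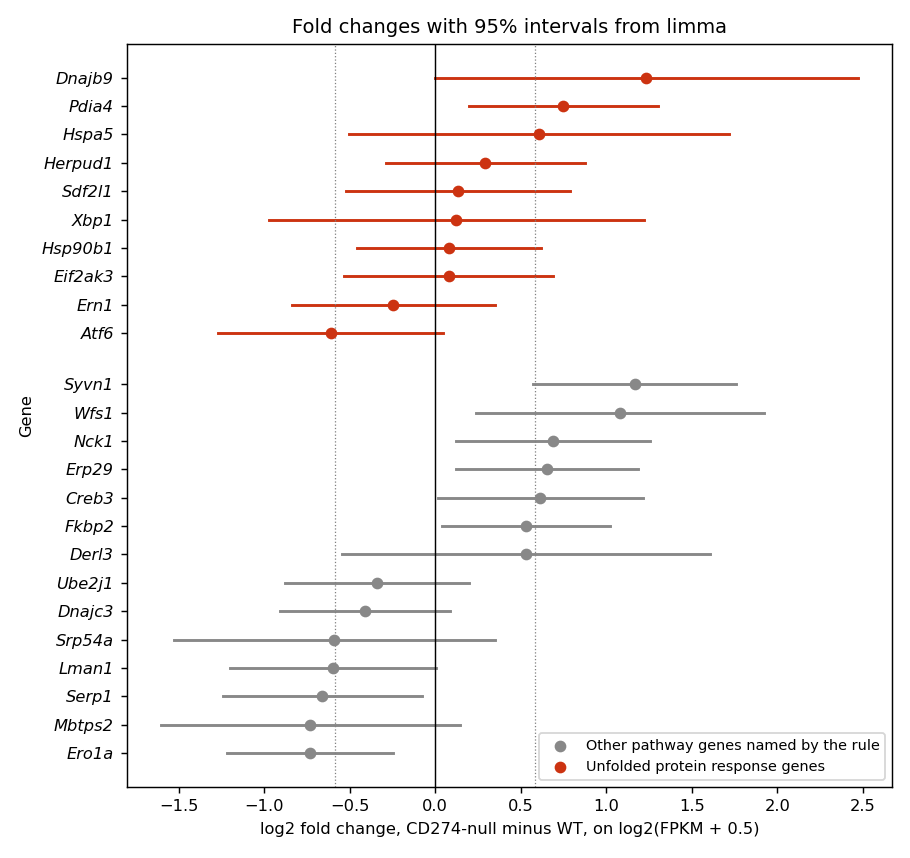
Differences (CD274-null minus WT on log2(FPKM + 0.5)) with 95% intervals from limma for the 10 unfolded protein response genes (red) and the 14 other pathway genes named by the rule (grey). Dotted lines mark 1.5-fold, and of the 10 genes Pdia4 and Dnajb9 had intervals that did not include 0.

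The 10 genes were also described library by library, after their values had been seen. WT replicate 2 held the lowest level of 5 of the 10, Xbp1, Pdia4, Dnajb9, Sdf2l1 and Herpud1, and of 23.8% of all tested genes. For Dnajb9 this library was at least 2-fold below each other library, as for 3.42% of all tested genes. CD274-null replicate 2 was highest for 4 of the 10, Hspa5, Hsp90b1, Dnajb9 and Herpud1, and for 21.0% of all tested genes. WT replicate 1 was highest for another 4, Xbp1, Sdf2l1, Atf6 and Ern1, and for 23.9% of all. In CD274-null replicate 2, Hspa5 and Dnajb9 were at least 2-fold above each other library, 2 of the 10 genes beside 2.3% of all tested genes. Summed over the 10 genes, FPKM was 1526 and 1274 in WT, against 1442 and 2465 in CD274-null libraries, with Hspa5 the highest of the 10 in each library.

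Genes of the PERK branch, also picked after their values were seen, had different libraries at the top. In CD274-null replicate 2, where Hspa5 and Dnajb9 were highest, so were Ddit3, which encodes CHOP (42.2 and 19.6 in WT, then 41.8 and 107 in CD274-null libraries), and Ppp1r15a, which encodes the eIF2α phosphatase subunit GADD34 (62.0 and 76.3, then 59.2 and 168). WT replicate 1, where Xbp1 was highest, was at least 2-fold above each other library for Trib3 (16.3 and 0.862, then 0.937 and 0.734) and Chac1 (9.26 and 0.876, then 1.37 and 0.576), both known as targets of ATF4, and for 1.77% of all tested genes. At least 2-fold above each other library were 2 of the 94 tested pathway genes outside the 10 in CD274-null replicate 2, Ddit3 and Ppp1r15a, and 2 of 94 in WT replicate 1, both near the shares of all tested genes. Atf4 itself was highest there, at 528 against 241, 307 and 388. The limma differences of Ddit3, Ppp1r15a, Trib3, Chac1 and Atf4 between the groups had adjusted p-values of 0.382, 0.640, 0.491, 0.531 and 0.971.

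**Figure D4:**
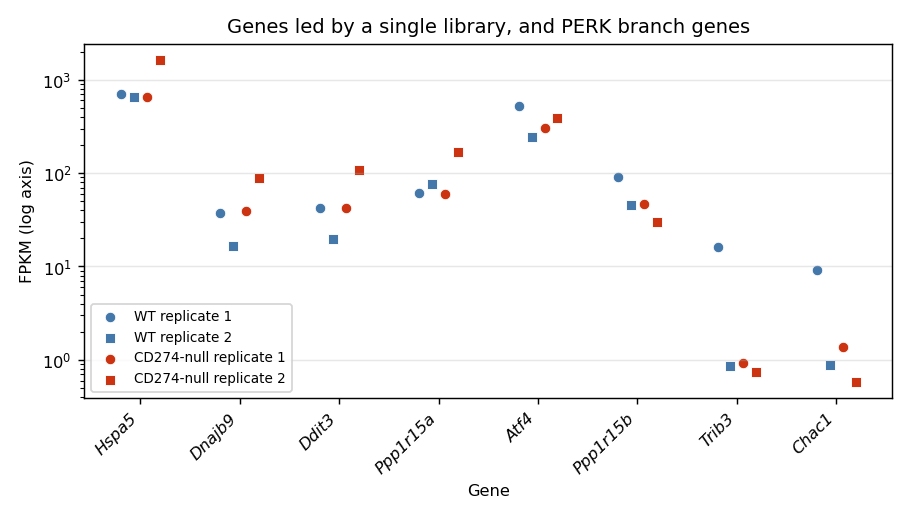
FPKM on a log axis of Hspa5, Dnajb9 and 6 PERK branch genes, 1 point for each of the 4 libraries (blue, WT; red, CD274-null; circles, replicate 1; squares, replicate 2). Hspa5, Dnajb9, Ddit3 and Ppp1r15a were highest in CD274-null replicate 2, and Atf4, Ppp1r15b, Trib3 and Chac1 in WT replicate 1.

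Around the 10 genes, 95 other genes of the pathway were listed, and 94 were tested. Of these 1 was a candidate higher and 1 a candidate lower in the CD274-null-labelled libraries, beside 2.39% and 1.24% of all tested genes. None had an adjusted p under 0.05 from limma, and 8 had an unadjusted p under 0.05, or 8.51%, beside 13.7% of all tested genes. The higher one was Syvn1, which encodes HRD1, the ubiquitin ligase of ER-associated degradation that Herpud1 protein binds, at 18.9 and 17.1 in WT, against 34.8 and 48.2 in CD274-null libraries (difference 1.16 ± 0.25, SE, limma adjusted p = 0.251, 0.190 to 0.954 over the alternatives), and it was a candidate under 11 of the 16 alternatives, but not without WT replicate 2, CD274-null replicate 1 or CD274-null replicate 2. The lower one was Ero1a, the oxidase that recharges protein disulfide isomerases, at 53.6 and 54.9, then 34.1 and 30.9 (difference -0.73 ± 0.20, SE, limma adjusted p = 0.274, 0.250 to 0.954 over the alternatives), and it was a candidate under only 5 of the 16, losing the call whichever library was left out and under voom.

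By list, the median difference was -0.02 for 24 other chaperones and folding enzymes (11 above 0, 13 below), -0.00073 for 19 degradation genes (9 above, 10 below), -0.20 for 29 genes of translocation and export (9 above, 20 below), -0.27 for 10 PERK branch genes (3 above, 7 below) and 0.04 for 13 regulators of the IRE1 and ATF6 branches (9 above, 4 below). The other genes named by the rule were not candidates. With groups that did not overlap, Erp29, Fkbp2, Nck1, Creb3 and Wfs1 had differences of 0.65, 0.53, 0.69, 0.61 and 1.08, and Serp1, Lman1, Mbtps2, Dnajc3 and Ube2j1 of -0.66, -0.60, -0.73, -0.41 and -0.34, with limma adjusted p-values from 0.306 (Wfs1) to 0.528 (Ube2j1). With a library left out, Mbtps2 ran from -0.39 (without CD274-null replicate 2) to -1.07 (without CD274-null replicate 1), and Lman1 from -0.37 to -0.83 without the same libraries. Derl3 rested on 4 to 12 reads per library, and Srp54a (-0.59) has near-identical copies among which the counting could have split its reads.

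Because antibody-secreting cells hold the ER genes at high levels, their markers were set beside the 10 genes. The FPKM of 16 such markers summed to 42.8 and 35.1 in WT, against 435 and 482 in CD274-null libraries, and 6 and 8 of the 16 were listed at 0 in the WT libraries but 0 of 16 in each CD274-null library. A value above 0 can rest on 1 recovered read, as for Ighg3 and Tnfrsf17 in each CD274-null library. Most of the sum was immunoglobulin in each library. Igkc led it in the CD274-null libraries (8.64 and 7.98, then 214 and 189, log2 difference 4.52, limma adjusted p = 0.00245). Igha was nearly equal in both (114 and 102), while Ighm was higher in CD274-null replicate 2 (9.04 and 14.1, then 49.1 and 162). Of the 9 tested markers, 7 were candidates, all of them higher in the CD274-null-labelled libraries, beside 2.39% of all tested genes. An adjusted p under 0.05 from limma was found for 2 of the 9, beside 0.0756% of all tested genes. Ighg2b, Ighg2c, Iglc1, Iglc2 and Jchain averaged under 0.5 FPKM in WT and passed the filter only through the CD274-null libraries. CD274-null replicate 1 held the highest level of 8 of the 9 tested markers, all but Ighm. The share of all tested genes highest in that library was not counted. Ighg2c rests on 10 and 1 reads in CD274-null replicates 1 and 2, and Iglc2 on 7 and 4. In the WT libraries Fkbp11, which is not an immunoglobulin gene, was above Igkc (19.0 and 12.01), and Sdc1, which marks plasma cells, was at most 0.296 in any library. Jchain, Mzb1, Prdm1, Irf4 and Pou2af1 were higher in both CD274-null libraries than in both WT libraries. Jchain stood at 0.370 and 0.514 in WT, then 12.3 and 10.5 (log2 difference 3.65, limma adjusted p = 0.0369). The others were too low to be tested, at most 1.05 FPKM in any library. Summed over the 5 chaperones, FPKM was 1208 and 1097 in WT, but 1182 and 2219 in CD274-null replicates 1 and 2, and Hspa5 made up most of this sum. In CD274-null replicate 1, with its marker sum of 435, Xbp1, Sdf2l1 and Herpud1 lay between their WT values and Hspa5 below both, whereas Hsp90b1, Pdia4 and Dnajb9 lay above both.

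Markers of other cells also differed between libraries. Those of mast cells and basophils, 7 genes, summed to 43.7 and 68.4 in WT, against 84.9 and 152 in CD274-null libraries, highest where Hspa5 and Dnajb9 were highest. Among them Hdc reached 50.3, Cpa3 43.1 and Gata2 42.3 in CD274-null replicate 2, whereas Mcpt8 stood at 10.3 and 32.1 in WT, then 37.2 and 14.8, and Ms4a2 was also highest in CD274-null replicate 1 (2.80). Fcer1a was listed at 0 in all 4 libraries. Erythroid markers summed to 55.6 in WT replicate 2, where Xbp1 and Dnajb9 were lowest, and to at most 4.73 elsewhere. Sums were 33.3 and 13.8, then 70.6 and 87.5 for T and NK cells (nearly all Nkg7, a candidate whose groups did not overlap, log2 difference 1.93, limma adjusted p = 0.269), 40.1 and 40.6, then 48.9 and 74.0 for plasmacytoid dendritic cells (mostly Bst2, though the increase in CD274-null replicate 2 was more Tcf4, at 1.74 and 2.72, then 7.40 and 23.6), and 13.0 and 37.0, then 37.5 and 39.8 for B cells (nearly all Cd79b, with Ms4a1 at 0 in 3 libraries). The study defines LICs by Mac-1 and c-Kit, but whether these libraries had that gate is not certain. How far a sort left any of these cells out was not tested. The part of any of these cells in the levels of the 10 genes was not tested.

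**Figure D5:**
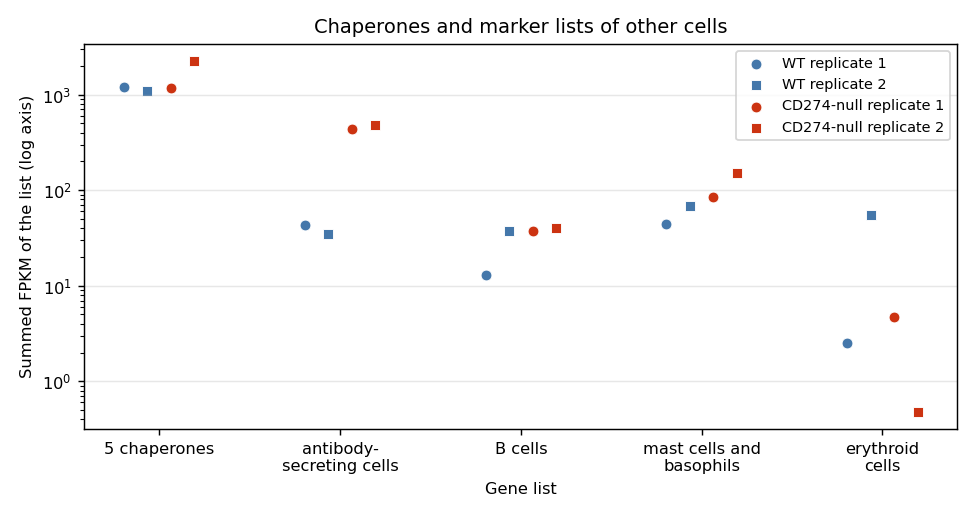
Summed FPKM on a log axis of the 5 chaperones among the unfolded protein response genes and of marker lists for other cells, 1 point for each of the 4 libraries (blue, WT; red, CD274-null; circles, replicate 1; squares, replicate 2). The antibody-secreting cell markers were at 435 and 482 in the CD274-null libraries, while the chaperone sum was at 1182 in CD274-null replicate 1 and 2219 in replicate 2.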

How the data were processed

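Libraries of the TruSeq v2 kit, which does not mark strand, were sequenced on a HiSeq2500. Per the labels and the study's methods, the authors processed reads with CASAVA 1.8.2, aligned them to GRCm38 with TopHat2 2.0.12 and deposited 1 FPKM value per gene and library. The program and gene lengths behind the FPKM values are not given in the sources used here. Columns were matched to samples by name and gene numbers to RefSeq symbols (25275 of 27179). FPKM values are whole multiples of the value of 1 read, which gave reads for 17082 of 17083 genes above 0 in at least 2 libraries (tolerance 0.002), up to a common factor. Sums of these reads were 10968851, 9615840, 8285063 and 9345641 (WT replicates 1 and 2, CD274-null replicates 1 and 2).

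Genes whose FPKM averaged 0.5 or more (13230) were tested on log2(FPKM + 0.5) with limma 3.58.1 (R 4.3.3, trend), two-sided, and p-values were adjusted by Benjamini-Hochberg over all of them. A fold change on this scale understates that of low genes. On simulated data for this comparison (13070 genes run, 199 of them changed), 99% of genes changed by 2 on the log2 scale and 100% of those changed by 3 were called as candidates, as were 1.1% of unchanged genes. The simulation gave every gene the same dispersion and held no change smaller than 2. The largest difference of the 10 genes was 1.23, so that the power to call differences of their size and spread was not examined. Named were all 10 genes, Cd274, and, in each other pathway list, every candidate and the 3 tested genes with the largest difference among those whose groups did not overlap. Of each marker list, up to 4 with the highest FPKM could be named. The other markers named were chosen after their values were seen. Kit, Sdc1, Fcer1a and Ms4a1 are among them as defining markers, and Ms4a2 as an exception to a pattern. The further markers of antibody-secreting cells are named for their direction or their few reads. The members and lists were chosen with earlier results of these data known. Alternatives changed the pseudocount, filter, scaling, moderation, GC correction, replicate block and reads (voom), and left out each library in turn.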

Additional observations from a re-analysis of the deposited data

How the results depend on the processing

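With 2 libraries a group, each difference rests on few values, and where a library was left out the lone one is assumed to vary like the other group. The number of candidates among the 10 genes was 0 under all 16 alternatives. Of the results for single genes other than Cd274, 353 kept direction and side of the thresholds, 16 lost the call (Ero1a 11 times, Syvn1 5) and 2 gained it (both Wfs1), and 9 turned. Cd274 turned 3 times. Xbp1 turned to -0.0083 and Sdf2l1 to -0.075 under GC correction, with or without the replicate block. With each library left out in turn, differences ran from -0.58 (without WT replicate 2) to 0.82 for Xbp1, which was -0.04 without CD274-null replicate 1, from -0.20 (without WT replicate 2) to 0.46 for Sdf2l1, from -0.10 (without WT replicate 1) to 0.26 for Eif2ak3, and from -0.057 (without CD274-null replicate 2) to 1.27 for Hspa5. The median of the 10 ran from 0.078 to 0.49. Cd274 was -0.0026 with quantile normalization and ran from -0.51 (without WT replicate 2) to 0.68, and was -0.18 without CD274-null replicate 2. Candidates among the other pathway genes, 2 in the main analysis, were 1 with a pseudocount of 0.1, with the filter at an average FPKM of 5, without moderation, with GC correction and without WT replicate 1, 0 without CD274-null replicate 1 or 2, and 3 without WT replicate 2, neither Ero1a nor Syvn1 among them. The count over all tested genes, 480, was 170 without moderation, and 147 (without CD274-null replicate 2), 235 (without CD274-null replicate 1) to 634 (without WT replicate 2) with libraries left out. Its split, 316 higher and 164 lower, was 253 and 210 with quantile normalization, 247 and 200 with equal medians, and 162 and 160 with GC correction. The cause was not tested.

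The labels number the replicates but state no pairing. Deviations of same-numbered libraries from their group means correlated at r = -0.0151 across 13230 genes, which are not independent. No broad shift shared by same-numbered libraries was thus seen, but with 2 libraries a group this cannot exclude a pairing. With the replicate block the counts were 0 among the 10 genes, 1 among the other pathway genes and 526 among all, and with GC correction and replicate block together 0, 0 and 353.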
